A study of Mus musculus with 23 samples.

Results

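Pcdh10 is a nonclustered protocadherin, a cell surface adhesion protein. It was followed here with 9 other genes for adhesion and guidance of olfactory axons: Kirrel2, Kirrel3, Sema7a, Efna5, Epha5, Nrp1, Nrp2, Plxna1 and Cdh13. The 10 genes were chosen by name, from 23481 gene symbols in each count table, and all 10 were found in all 23 libraries. RNA bound to ribosomes that carry phosphorylated ribosomal protein S6 (pS6) was pulled down from olfactory epithelium and sequenced. Phosphorylation of S6 follows neuronal activity, so the pull-down is weighted towards RNA of activated cells. The animals were C57BL/6 mice at postnatal day 21, exposed for 1 h to the odorant acetophenone, to TMT (trimethylthiazoline, a fox odor) or to a control.

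For acetophenone there were 3 libraries at 100% (litters 1 to 3), 3 at 1% (litters 3 to 5) and 5 controls (litters 1 to 5). For TMT there were 4 libraries each at 100%, at 1% and of control, 1 per litter in litters 1 to 4. The litters of the experiments were separate, 9 in all. The labels name no transgene or mutant allele, do not describe the control exposure further, and do not say how many mice a library pools. P-values therefore measure a spread between libraries and not between single mice. In fits without litter as a block that spread includes differences between litters. With litter as a block, differences in level between litters are taken out, and the p-values measure the spread that is left. In a pull-down from whole tissue, more RNA per cell and more cells of a type in the pulled-down material cannot be told apart. Library totals of unique counts ranged from 2118099 to 9526932. Every gene of the mature olfactory neuron list (14 genes, Omp and Gnal among them) had reads in each of the 6 groups. The same held for the lists of immature neuron, sustentacular, basal, fibroblast and immune cell markers. Titles of TMT litter 1 carry another code series than those of litters 2 to 4, and the code series changes between acetophenone litters too, so a library batch and a litter cannot be told apart.

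Axons of olfactory neurons that carry the same odorant receptor converge on common glomeruli in the olfactory bulb. Guidance molecules such as neuropilins and plexins sort axons over the bulb early. Adhesion molecules, among them the Kirrel proteins, Eph receptors with their ephrins, and Pcdh10, then act locally between axons, and their levels differ between neurons with different receptors and with neuronal activity. In mouse olfactory neurons Kirrel2 is known to be higher in active neurons and Kirrel3 in inactive ones.

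The promoter of Pcdh10 is shown because Pcdh10 was the gene of the 10 that passed an edgeR test after acetophenone (with litter as a block, not without it), and because cyclic AMP response elements (CREs) are a known route from neuronal activity to transcription. Pcdh10 lies on chromosome 3 at 45378398 to 45435623 on the plus strand (GENCODE annotation, GRCm38, the assembly also called mm10). The 250 bases upstream of its annotated start (RefSeq, GRCm38.p6, chr3:45378148-45378397, plus strand) read, with the 5-base CRE core TGACG in capitals:
Pcdh10: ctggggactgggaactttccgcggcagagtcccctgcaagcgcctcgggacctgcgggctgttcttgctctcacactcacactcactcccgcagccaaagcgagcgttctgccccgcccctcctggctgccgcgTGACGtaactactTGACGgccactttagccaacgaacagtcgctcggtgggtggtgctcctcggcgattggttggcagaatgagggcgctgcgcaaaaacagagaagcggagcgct
The core was searched on both strands and stands here 2 times, both on the plus strand, at 112 to 116 and at 99 to 103 bases upstream of the start. Of 32851 promoter windows of the same length, 17.8% held TGACG and 3.9% held it 2 or more times. Of the 10 genes, 7 had a promoter in the table (Nrp2, Pcdh10, Epha5, Kirrel2, Nrp1, Sema7a and Efna5), and among these the core was found in that of Pcdh10 alone. The palindromic CRE TGACGTCA (1.55% of windows), the AP-1 motif TGANTCA (6.75%), the MEF2 motif (3.2%) and the Olf/EBF motif (0.779%) were in none of the 7. The EGR motif GCGNGGGCG (4.7% of windows) had 1 match, in Efna5. These letters in a window are a description and not shown binding sites. The Pcdh10 window had a GC content of 63.2%, against a median of 52.4% over all windows.

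Per kilobase of transcript, Kirrel2 had the highest level of the 10 genes, followed by Pcdh10 and Nrp1. Kirrel2 had a median of 65.66 CPM per kb over the 23 libraries (CPM, counts relative to the TMM-scaled library size). Pcdh10 had a median of 13.4 and Nrp1 of 10.83 CPM per kb, and the ranges of Pcdh10 (1.92 to 28.4) and Nrp1 (6.14 to 28.9) overlapped almost whole. Kirrel3, Epha5 and Cdh13 followed with medians of 3.18, 2.07 and 1.21 CPM per kb, again with overlapping ranges. Nrp2 had a median of 0.573 CPM per kb. Efna5, Sema7a and Plxna1 lay lowest, at medians of 0.282, 0.203 and 0.0163 CPM per kb, with counts from 0 to 15 for Efna5, 0 to 15 for Sema7a and 0 to 13 for Plxna1. A count of 0 allows up to 3 counts, and at this depth no difference in Sema7a or Plxna1 was detectable.

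**Figure D1:**
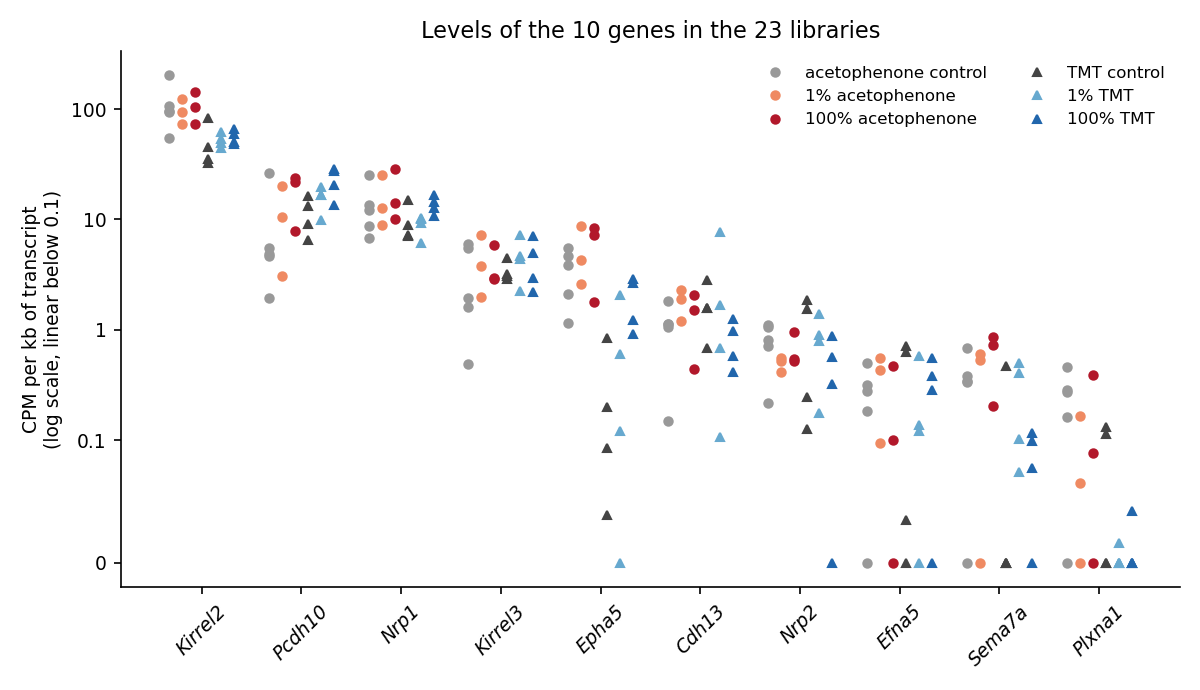
Level of each of the 10 genes (horizontal axis) in CPM per kb of transcript (vertical axis, logarithmic, linear below 0.1). Each point is 1 library; circles are the acetophenone experiment and triangles the TMT experiment, each from control over 1% to 100%. Kirrel2 lies on top with a median of 65.66 CPM per kb, and Plxna1 is at 0 in 11 libraries.

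Pcdh10 was about 4-fold higher after 100% acetophenone than in same-litter controls, by nearly the same factor in each of 3 litters. It had 194.1 CPM (611 counts) with the odor in litter 1, against 45.16 CPM (142 counts) in its control. In litter 2 it had 178.6 CPM (533 counts) with the odor and 38.61 CPM (113 counts) in the control. In litter 3, where both levels were lower, it had 64.71 CPM (160 counts) with the odor and 15.83 CPM (43 counts) in the control. The ratios within litters were 4.3, 4.63 and 4.09, so litters differed in level while the ratio was nearly constant. The groups did not overlap, which was so for 1.83% of all genes tested in that direction.

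With litter as a block, Pcdh10 rose 4.31-fold (log2 2.11, SE 0.20, edgeR adjusted p = 0.00681). It was 1 of 11 genes called higher, 0.0951% of the 11564 tested, and no gene was called lower. Without the block the log2 fold change was nearly the same, 2.12, but its SE was 0.58 and the adjusted p was 1. That fit called 0 genes, although 48 higher and 13 lower ones had an unadjusted p under 0.05. DESeq2 without the block called 5 (0.0432%), Pcdh10 not among them. With the block DESeq2 called 0.329% of genes higher, edgeR on estimated counts 0.0969% and edgeR with a correction for GC content and transcript length 0.0692%, Pcdh10 among them each time. With the block the call held without any 1 of the litters, at log2 fold changes of 2.06 to 2.15 and edgeR adjusted p of 0.00646 to 0.0348. So few libraries were left in each of those fits that the p-values rest largely on a spread estimate shared over genes. With that correction the value was 2.03 (SE 0.19, edgeR adjusted p = 0.00554). Pcdh10 shares 154 exon bases with the opposite-strand gene 1700027H10Rik, and no source used here states strand-specific counting.

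At 1% acetophenone Pcdh10 did not pass the test. It had 25.25, 165.2 and 86.35 CPM with the odor in litters 3, 4 and 5, against 15.83, 217.2 and 39.72 CPM in their controls. It was higher in litters 3 and 5, by 1.6 and 2.17 times, and lower in litter 4, at 0.761 times, whose control stood far above the other controls. With litter as a block the log2 value was 0.42 (SE 0.29, 95% interval -0.15 to 0.98, edgeR adjusted p = 0.733), and none of the 10 genes was among the 0.00828% of genes called. Without litter 4 that value was 0.95 and without litter 5 it was -0.03, neither of them called, so its size and direction rested on single litters. Litter 3 is the only litter with both doses, and there Pcdh10 stood at 15.83 CPM in the control, 25.25 at 1% and 64.71 at 100%. Over all 11 acetophenone libraries with litter in the model, 100% exceeded 1% by 1.60 on the log2 scale (SE 0.32, edgeR unadjusted p = 0.000436, adjusted p = 0.682). There edgeR called 0% of 12873 genes (an unadjusted p under 0.05 was found for 453 higher and 355 lower), while DESeq2 called 4, 0.0233% of genes being called higher with Pcdh10 among them (1.59, adjusted p = 0.0295).

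**Figure D2:**
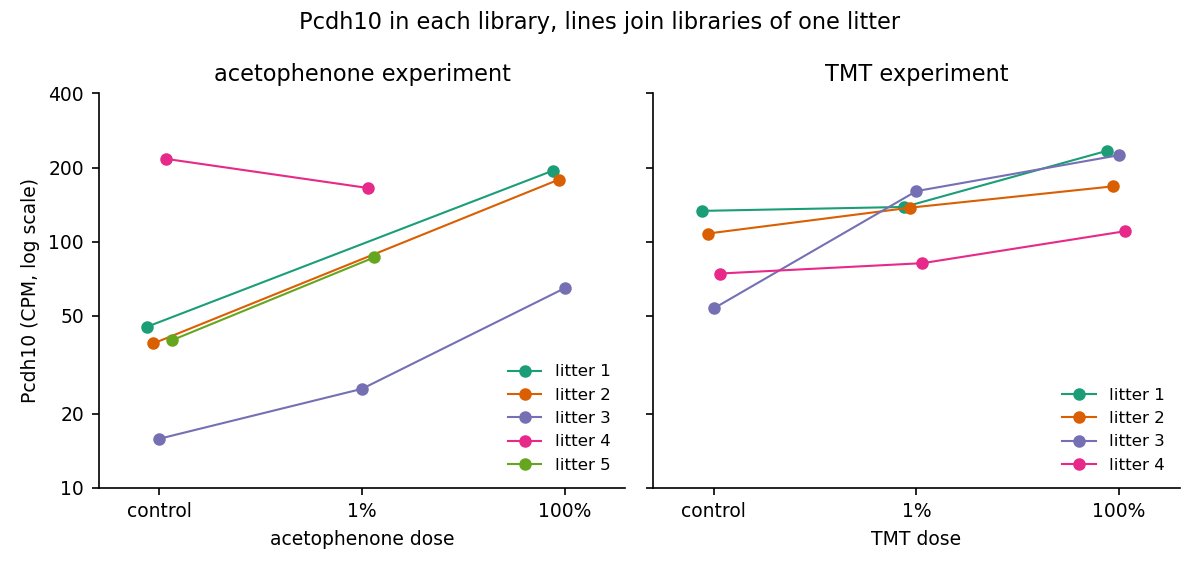
Pcdh10 in CPM (vertical axis, logarithmic) by odor dose (horizontal axis) in the acetophenone experiment, left, and the TMT experiment, right. Each point is 1 library and lines join libraries of 1 litter; the 3 acetophenone lines that end at 100% run nearly parallel, with ratios of 4.09 to 4.63 over control, and the control of litter 4 stands at 217.2 CPM.

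In the TMT experiment Pcdh10 was ordered by dose in every litter. In litter 1 it had 133.4 CPM in the control, 138.4 at 1% and 233.9 at 100%. In litter 2 the levels were 107.9, 137.5 and 167.8 CPM, and in litter 4 they were 74.24, 81.79 and 110.3 CPM, in the same order of doses. Litter 3 spanned most, with 53.58 CPM in the control, 160.5 at 1% and 224.6 at 100%. An order of control below 1% below 100% in all 4 litters was found for 0.967% of the 13233 genes tested, and for no other of the 10 genes. The step at 1% was small in litters 1 and 4, at 1.04 and 1.1 times the control.

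At 100% TMT the log2 fold change of Pcdh10 over control was 1.04 with litter as a block (SE 0.25, edgeR adjusted p = 0.0507) and 1.05 without it (SE 0.32, edgeR adjusted p = 0.19), so it missed the threshold of 0.05 in both. The block fit called 1.84% of genes higher and 0.529% lower, none of the 10 genes among them. The fit without the block called none, though an unadjusted p under 0.05 was found for 1102 higher and 842 lower genes. DESeq2 placed Pcdh10 past the threshold, with the block (adjusted p = 0.00178, among 6.94% of genes called higher) and without (adjusted p = 0.0384, among 2.33%). On estimated counts with the block 2.31% were called higher, Pcdh10 included. Litter 3 had a ratio of 4.19 and the other 3 litters 1.49 to 1.75. Without litter 3 the log2 fold change with the block was 0.73 (SE 0.18, edgeR adjusted p = 0.131). Corrected for GC content and length it was 0.52 (SE 0.28, edgeR adjusted p = 0.356). Across 13115 genes the fold change at 100% TMT went down with GC content (Spearman rho -0.44, over genes that share the same 12 libraries), and Pcdh10 transcripts have 43.5% GC against a median of 50.3%. The same rho was -0.17 at 100% acetophenone.

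At 1% TMT the log2 fold change of Pcdh10 was 0.51 (SE 0.24 with litter as a block, edgeR adjusted p = 0.726), and none of the 10 genes was among the 0.00756% called. Between the TMT doses, 100% exceeded 1% by 0.52 (SE 0.24 with the block, edgeR adjusted p = 0.618), where 0% of genes were called (an unadjusted p under 0.05 was found for 567 higher and 501 lower). The response of Pcdh10 to 100% acetophenone exceeded that to 100% TMT by 1.09 on the log2 scale with litters as blocks (SE 0.39, edgeR unadjusted p = 0.0132, adjusted p = 0.256), and by 0.03 (SE 0.88) without blocks. The fit without blocks holds all 5 acetophenone controls, and without the control of litter 4 it gave 1.07 (SE 0.69); without any other 1 library it gave -0.29 to 0.36. That comparison called 0% of 13831 genes (with the block an unadjusted p under 0.05 was found for 667 higher and 1039 lower). A difference between the odors was thus not shown. Without blocks the median over all genes was itself -0.10.

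Kirrel2 and Kirrel3, homophilic adhesion proteins of the immunoglobulin superfamily, showed no called change at either odor. Kirrel2 had 410, 558 and 285.1 CPM with 100% acetophenone in litters 1 to 3, against 372.8, 215.2 and 416 CPM in their controls. The ratios of 1.1, 2.59 and 0.685 had no common direction (log2 0.30 with litter as a block, SE 0.31, 95% interval -0.30 to 0.91, edgeR adjusted p = 0.919). At 1% acetophenone Kirrel2 was lower in 3 of 3 litters, at 0.693, 0.604 and 0.982 times the control, as were 15.4% of genes (log2 -0.42 with the block, SE 0.17, edgeR adjusted p = 0.573). At 100% TMT it had 232.4, 186.3, 256.1 and 194.4 CPM in litters 1 to 4, against 325.9, 138.3, 175.6 and 127.2 CPM in the controls, lower in litter 1 and higher in the other 3 (log2 0.31 with the block, SE 0.23, edgeR adjusted p = 0.493). Kirrel2 transcripts are GC-rich (56.1%), and after the GC and length correction its value was 0.71 (SE 0.25, edgeR adjusted p = 0.156).

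Kirrel3 had 24.14, 12.07 and 12.13 CPM (76, 36 and 30 counts) with 100% acetophenone in litters 1 to 3, against 6.68, 2.05 and 8.1 CPM (21, 6 and 22 counts) in the controls. All 3 odor libraries stood above all 3 controls, with ratios of 3.61, 5.89 and 1.5, as for 1.83% of genes, but the change missed the threshold (log2 1.58 with litter as a block, SE 0.50, edgeR unadjusted p = 0.0101, adjusted p = 0.841). At 1% acetophenone the ratios of Kirrel3 were 1.02, 0.686 and 1.22. At 100% TMT they were 1.13, 0.959, 2.22 and 0.763 in litters 1 to 4 (log2 0.34 with the block, SE 0.46, edgeR adjusted p = 0.751), so neither condition gave a common direction.

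Epha5, a receptor tyrosine kinase that binds ephrin-A ligands, was low in TMT controls and present in every 100% TMT library. It had 19.62, 9.02, 6.67 and 21.16 CPM (51, 55, 18 and 166 counts) at 100% TMT in litters 1 to 4, against 6.21, 0.684, 0.284 and 1.48 CPM (26, 4, 2 and 8 counts) in the controls. The groups did not overlap, as for 4.21% of genes in that direction. The fold change was 2.78 on the log2 scale without the block (SE 1.24, edgeR adjusted p = 0.315) and 3.66 with it (SE 0.88, edgeR adjusted p = 0.0543), which missed the threshold. DESeq2 with the block gave 3.73 (adjusted p = 0.000255), among 6.94% of genes called higher. Epha5 cleared the filter on low counts in 4 of 4 libraries at 100%, 2 of 4 at 1% and 1 of 4 controls, so it was tested because of the group in which it was high. With the GC and length correction the value was 2.93 (SE 0.85, edgeR adjusted p = 0.0954), and the transcript has 40.1% GC, the lowest of the 10 genes. At 1% TMT Epha5 had 15.15, 0.886, 0 and 4.39 CPM, without a called change (log2 0.86 with the block, SE 0.84, edgeR adjusted p = 0.878).

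Levels of Epha5 in the acetophenone experiment were higher than in most TMT libraries, and the ratios were smaller. With 100% acetophenone it had 13.02, 52.95 and 61.48 CPM in litters 1 to 3, against 15.58, 34.51 and 40.5 CPM in the controls (log2 0.34 with litter as a block, SE 0.27, edgeR adjusted p = 0.897). At 1% acetophenone Epha5 was higher in 3 of 3 litters, by 1.57, 1.12 and 2.24 times, a direction found for 16% of genes (log2 0.62 with the block, SE 0.24, edgeR adjusted p = 0.553). The response of Epha5 to 100% acetophenone minus that to 100% TMT was -3.10 on the log2 scale with the block (SE 0.84, edgeR unadjusted p = 0.00212, adjusted p = 0.148), which DESeq2 with the block called, with 2.15% of genes called lower. Between the TMT doses Epha5 differed by 2.80 with the block (SE 0.86, edgeR adjusted p = 0.52). DESeq2 with the block called it there, among 0.401% of genes called higher, but Epha5 had entered the test through the 100% group. Efna5, its ligand ephrin-A5, was tested in the TMT comparisons only, with counts from 0 to 15 and a value of 0.12 on the log2 scale at 100% (SE 2.36 with the block, edgeR adjusted p = 0.986). That interval, from -4.50 to 4.74, allows a large change either way.

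Nrp1, the co-receptor of plexins for class 3 semaphorins, was higher at 100% of both odors in every litter, without passing the test. With 100% acetophenone it had 36.84, 51.95 and 105.6 CPM in litters 1 to 3, against 24.81, 32.12 and 91.31 CPM in the controls (log2 0.47 with litter as a block, SE 0.21, edgeR adjusted p = 0.897). At 100% TMT Nrp1 had 60.78, 46.08, 52.25 and 39.51 CPM in litters 1 to 4, against 54.91, 26.33, 32.74 and 25.92 CPM in the controls (log2 0.61 with the block, SE 0.26, edgeR adjusted p = 0.217). With the GC and length correction the TMT value was -0.08 (SE 0.27), so its direction was not held; its transcripts have 41.9% GC. All 4 libraries at 100% TMT were above all 4 at 1%, which had 37.37, 37.04, 22.4 and 33.7 CPM; 1.47% of genes were so ordered (log2 0.63 with the block, SE 0.26, edgeR adjusted p = 0.599).

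Nrp2, the neuropilin that pairs with Sema3F, was low and had no common direction. It had 3.49, 6.37 and 3.64 CPM with 100% acetophenone in litters 1 to 3, against 4.77, 5.47 and 1.47 CPM in the controls. At 100% TMT Nrp2 had 3.85, 5.9, 0 and 2.17 CPM, against 12.41, 0.855, 10.35 and 1.67 CPM in the controls, a spread of more than 10-fold within the control group. The intervals of its log2 fold change with litter as a block were -1.04 to 1.56 at 100% acetophenone and -2.87 to 2.14 at 100% TMT.

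Cdh13, a cadherin with a glycolipid anchor in place of an intracellular domain, went in opposite directions at 100% of the odors, with few counts. It had 9.53, 2.01 and 6.88 CPM (30, 6 and 17 counts) with 100% acetophenone in litters 1 to 3, against 8.27, 0.683 and 5.15 CPM (26, 2 and 14 counts) in the controls. At 100% TMT Cdh13 had 5.77, 2.62, 4.45 and 1.91 CPM (15, 16, 12 and 15 counts) in litters 1 to 4, against 12.89, 7.18, 7.23 and 3.15 CPM in the controls, lower in 4 of 4 litters as were 15.9% of genes. Neither change passed (log2 0.53, SE 0.60 and -1.04, SE 0.95 with litter as a block; edgeR adjusted p = 0.927 and 0.604). At 1% acetophenone the 3 odor libraries (5.52, 10.45 and 8.78 CPM) were above all 3 controls (5.15, 5.15 and 4.82 CPM), as for 1.68% of genes (log2 0.71 with the block, SE 0.41, edgeR adjusted p = 0.664). The 1% TMT library of litter 4 had 34.91 CPM (318 counts), against 0.49 to 7.74 CPM in the other 3 at that dose.

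Sema7a, a membrane-anchored semaphorin, and Plxna1, a plexin that transmits semaphorin signals with neuropilins, passed the filter in no comparison. Sema7a averaged 1.99 ± 1.16 CPM with 100% acetophenone (SD, n = 3) and 1.15 ± 0.795 CPM in acetophenone controls (SD, n = 5). Here and for Plxna1 below, the acetophenone controls include litters 4 and 5, which have no 100% library, so these means are not paired by litter. In the TMT experiment Sema7a averaged 0.242 ± 0.17 CPM at 100% and 0.385 ± 0.769 CPM in controls (SD, n = 4 each), with 3 of 4 controls at a count of 0. Plxna1 averaged 1.43 ± 1.83 CPM with 100% acetophenone (SD, n = 3) and 2.13 ± 1.52 CPM in acetophenone controls (SD, n = 5), and single TMT libraries held at most 1.19 CPM. These levels rest on a few reads each and were not compared further.

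**Figure D3:**
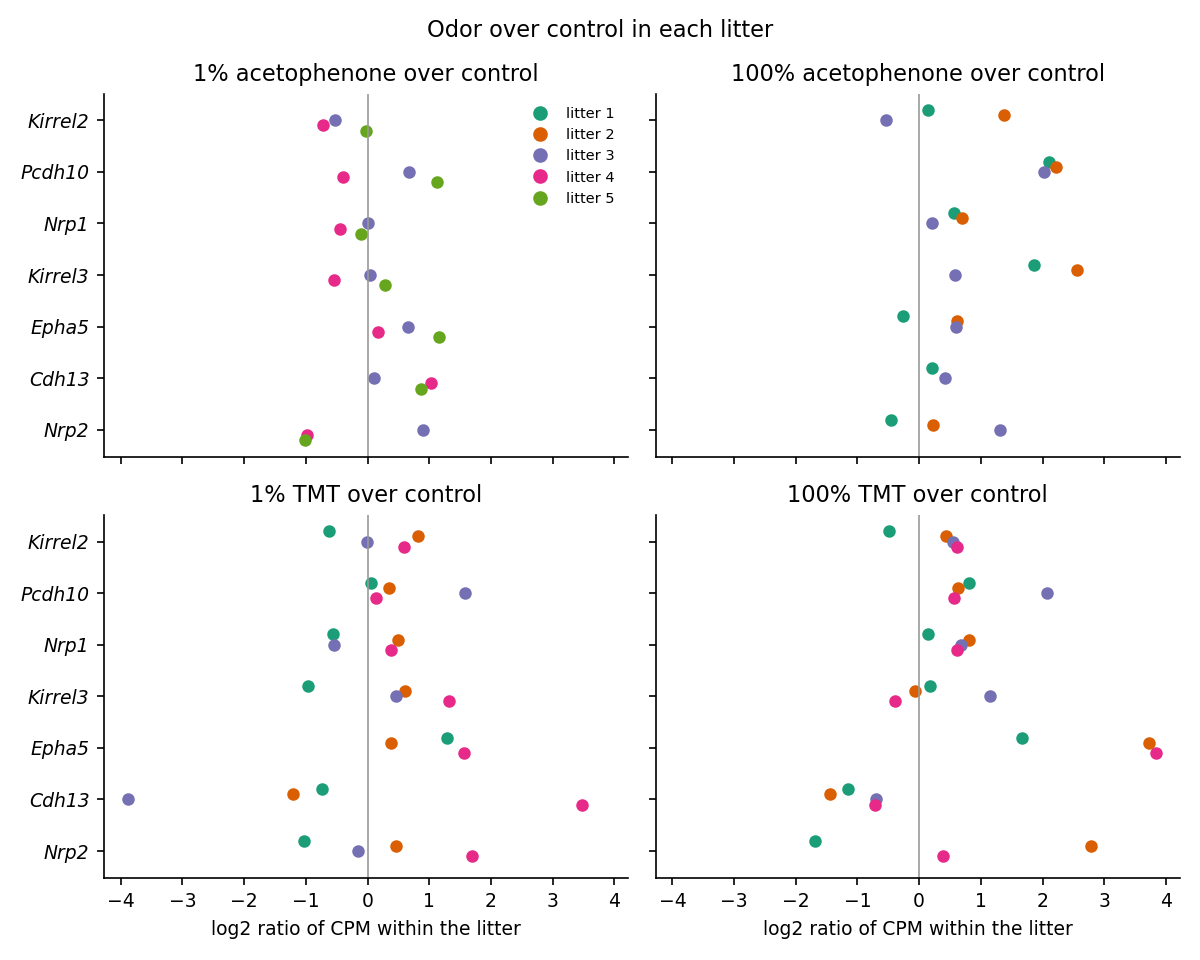
Log2 ratio of CPM, odor over the control of the same litter (horizontal axis), for the 7 genes tested in every comparison (vertical axis), in 4 panels by odor and dose. Each point is 1 litter, and litters in which either library had 3 counts or fewer are left out; the 3 Pcdh10 points at 100% acetophenone lie together at 2.03 to 2.21, while Kirrel2 points lie on both sides of 0.

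Of the 10 genes, 7 were tested at 100% acetophenone, and all 7 log2 fold changes were above 0 with litter as a block, as were 50.8% over all genes. Their median was 0.47, against 0.01 over all genes. At 1% acetophenone 3 of the same 7 were above 0 (51.8% over all genes), with a median of -0.07. At 100% TMT 6 of 8 tested genes were above 0 (51.0% over all genes), with a median of 0.33 against 0.02. One of them was Efna5, at 0.12 (SE 2.36), and without the block 5 of 8 were above 0. With the GC and length correction 4 of 8 were (57.0% over all genes), with a median of 0.22 against 0.11. The genes higher in every litter were Pcdh10, Kirrel3, Nrp1 and Cdh13 at 100% acetophenone, where 15.4% of all genes tested were. At 100% TMT they were Pcdh10, Epha5 and Nrp1, where 13.2% of all genes were, and at 1% TMT Pcdh10 alone, where 8.15% were.

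Most other genes of axon adhesion and guidance did not change past the threshold. In 6 lists of 111 such genes (other nonclustered protocadherins, immunoglobulin superfamily adhesion, ephrins and Eph receptors, semaphorins with plexins, Slit with Robo and netrin, and other cadherins), 54 were tested at 100% acetophenone, 62 at 1% acetophenone and 69 at both TMT doses. None passed in edgeR at 100% or 1% acetophenone or at 1% TMT, with or without the block, and none passed at 100% TMT without it. At 100% acetophenone the median log2 fold change over the lists was 0.04 with the block, against 0.01 over all genes, and 8 tested nonclustered protocadherins had a median of 0.11, with 6 above 0 and none called. The smallest p-values at 100% acetophenone in the edgeR fit without the block belonged to Sema6a, Alcam and Robo1. Sema6a is a transmembrane semaphorin, Alcam an immunoglobulin superfamily adhesion protein and Robo1 a receptor for Slit proteins. Their log2 fold changes with the block were 0.98 (SE 0.40), 0.79 (SE 0.34) and 1.21 (SE 0.41), with an edgeR adjusted p of 0.897 for each. Each was higher in 3 of 3 litters, as were 15.4% of all genes tested, and these genes were picked by their p-values.

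At 100% TMT with litter as a block, 2 of the 69 genes passed, both higher, against 1.84% of all genes. Cntn4, a contactin that acts in axon targeting, had 66.55, 27.06, 41.14 and 40.79 CPM at 100% TMT in litters 1 to 4, against 32.23, 3.42, 5.95 and 10 CPM in the controls (log2 2.23, SE 0.39, edgeR adjusted p = 0.0249). Itgb1, the integrin chain through which Sema7a signals, had 57.7, 53.13, 20.01 and 58.38 CPM at 100% TMT, against 39.15, 3.08, 5.39 and 17.03 CPM in the controls (log2 2.10, SE 0.46, edgeR adjusted p = 0.0427). Both were higher in 4 of 4 litters, as were 13.2% of all genes tested, and both calls were lost in several settings. Without the block the edgeR adjusted p was 0.238 for Cntn4 and 0.305 for Itgb1, and with the GC and length correction 0.0791 and 0.0834. Leaving out litter 2, 3 or 4 ended the Cntn4 call (adjusted p = 0.124, 0.0985 and 0.112) and the Itgb1 call (adjusted p = 0.146, 0.141 and 0.148). Their transcripts are GC-poor (41.6% and 44.8%). Acetophenone controls had 59.86 to 145.4 CPM of Cntn4 and 76.58 to 100.5 CPM of Itgb1, above every TMT control. Efna4, ephrin-A4, had the smallest p of the 69 genes at 100% TMT without the block (edgeR unadjusted p = 0.00905). It averaged 11.97 ± 3.66 CPM with the odor and 24.79 ± 4.14 CPM in controls (SD, n = 4 each). It was lower in 4 of 4 litters, as were 15.9% of all genes tested (log2 -1.03 with the block, SE 0.33, edgeR adjusted p = 0.116). DESeq2 with the block called Efna4 (-1.04, adjusted p = 0.0348), among 3.43% of genes called lower. It also called Cntn4 (adjusted p = 4.82e-06) and Itgb1 (adjusted p = 0.000134), among 6.94% of genes called higher. With the GC and length correction Efna4 was at -0.61 (SE 0.31, edgeR adjusted p = 0.324).

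**Figure D4:**
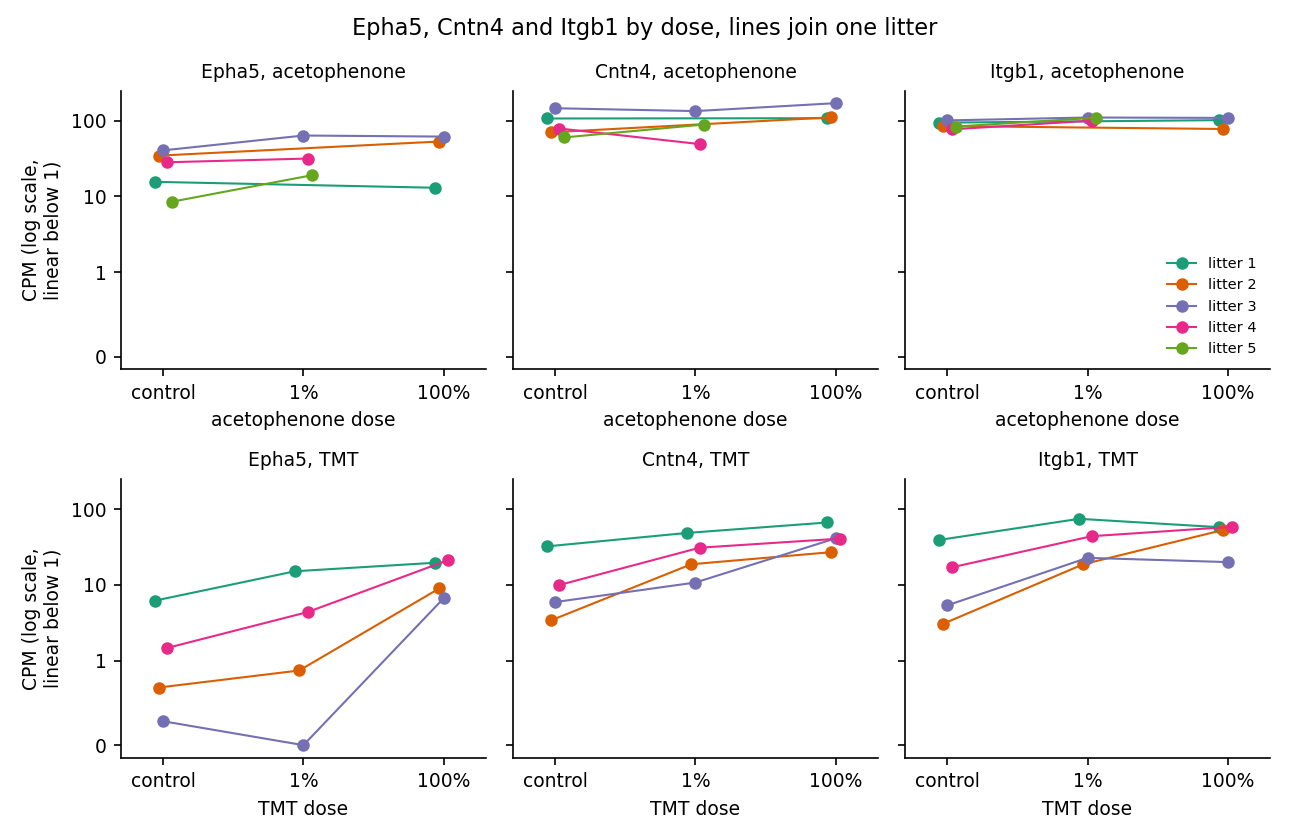
Epha5, Cntn4 and Itgb1 in CPM (vertical axis, logarithmic, linear below 1) by odor dose (horizontal axis), with the acetophenone experiment above and the TMT experiment below. Each point is 1 library and lines join libraries of 1 litter; Itgb1 lies between 76.58 and 109.7 CPM in all acetophenone libraries and at 3.08 to 39.15 CPM in TMT controls.

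Fos and Egr1, immediate early genes that mark recent activity, were measured beside these genes. Egr1 had 20.01, 56.64 and 12.13 CPM with 100% acetophenone in litters 1 to 3, against 2.23, 14.69 and 7.73 CPM in the controls (log2 1.84 with litter as a block, SE 0.46, edgeR adjusted p = 0.586). At 100% TMT Egr1 averaged 45.14 ± 3.88 CPM with the odor and 20.12 ± 5.43 CPM in controls (SD, n = 4 each; log2 1.29 with the block, SE 0.31, edgeR adjusted p = 0.0553). Egr1 passed there with the GC and length correction (1.74, SE 0.31, edgeR adjusted p = 0.0308) and in DESeq2 with the block (1.28, adjusted p = 0.003). These fits called 1.19% and 6.94% of all genes higher. Fos differed by 2.12 on the log2 scale (SE 0.52, edgeR adjusted p = 0.552) at 100% acetophenone and 1.44 (SE 0.42, edgeR adjusted p = 0.0885) at 100% TMT, both with the block. DESeq2 with the block called Fos at 100% TMT (1.43, adjusted p = 0.00629), among the same 6.94% of genes. Of 17 immediate early genes, 10 were tested at 100% TMT and 3 passed with the block, all higher (Dusp1, Nr4a1 and Nr4a2, named after their values were seen), against 1.84% of all genes. None of 7 tested passed in edgeR at 100% acetophenone, with or without the block. There Fos passed in DESeq2 with the block (2.22, adjusted p = 0.0154), among 0.329% of genes called higher. In edgeR with the block Fos passed without litter 1 (3.22, adjusted p = 0.00697). It did not pass in that fit without litter 2 (1.36, adjusted p = 0.934) or without litter 3 (adjusted p = 0.956). Fos had 28.9, 109.6 and 6.88 CPM with 100% acetophenone in litters 1 to 3, against 18.13, 11.27 and 0.736 CPM in the controls. The litter 3 levels rest on 17 counts with the odor and 2 in the control.

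Olfr30, an odorant receptor gene, had the pattern over the 23 libraries most like that of Pcdh10. Likeness was Pearson's r of log2(CPM + 1), centred within each of the 9 litters, over 13830 genes. The r of Olfr30 was 0.91, followed by Hs3st1, a heparan sulfate sulfotransferase (0.89), and by Olfr147, Olfr744 and Olfr1047 (0.83 each). The libraries share litters and depth, and leaving out 1 litter kept between 2 and 5 of these 5 genes among the top 5. Among the 10 genes, Kirrel3 had r = 0.71 (rank 43), Nrp1 0.56 (rank 303), Epha5 0.44 (rank 999), Kirrel2 0.39 (rank 1509), Cdh13 -0.08 and Nrp2 -0.22. Olfr30 averaged 74.2 ± 37.6 CPM with 100% acetophenone and 12.2 ± 4.99 CPM in controls of the same litters (SD, n = 3 each). Hs3st1 averaged 115 ± 43.6 CPM with 100% acetophenone and 52.1 ± 15.2 CPM in the same controls (SD, n = 3 each). As these genes were chosen for their likeness over the same libraries, their levels are a description and no test of them is given.

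Markers of cell types moved with the doses as follows, and their part in the results was not tested. The summed CPM of 14 mature olfactory neuron markers was 4601 to 7631 with 100% acetophenone and 4054 to 7412 in acetophenone controls, and 1.14 to 1.41 times the control within the 3 litters. Here and below, ranges of acetophenone controls cover all 5 controls, those of litters 4 and 5 included, which have no 100% library. In the TMT experiment that sum was 3476 to 4577 at 100% and 2014 to 4401 in controls, 0.995 to 1.82 times within the 4 litters. At 100% acetophenone 11 of the 13 mature neuron markers tested were above 0 and none passed. Immature neuron markers (11 genes) summed to 1553 to 2398 CPM at 100% TMT and 2200 to 3234 CPM in controls, 0.611 to 0.742 times within litters, and 1 of 9 tested passed with the block, Tubb3, lower (named after its value was seen), against 0.529% of all genes. At 100% acetophenone the sums of 10 endothelial and pericyte markers (63.3 to 139.7 CPM, against 80.6 to 166.0 CPM in controls), of 8 ensheathing glia markers (121.7 to 238.8 CPM, against 162.4 to 315.3 CPM) and of 8 immune cell markers (294.8 to 510.1 CPM, against 339.4 to 648.2 CPM) were lower than the control in 3 of 3 litters. One endothelial marker had no reads at 100% acetophenone, and 1 glial marker had none in TMT controls. Sustentacular markers summed to 11594 to 12935 CPM at 100% TMT and 9569 to 11166 CPM in controls, higher in 4 of 4 litters. Fibroblast markers (6 genes) summed to 12027 to 18830 CPM with 100% acetophenone, 0.818 to 1.2 times the control within litters. Their sum was 0.559 to 0.801 times the control at 1% acetophenone and 0.729 to 1.09 times at 100% TMT. At 100% TMT it was 0.65 to 0.966 times that at 1%. Sums of 8 basal cell markers were 0.99 to 1.63 times the control at 100% acetophenone and 0.649 to 2.54 times at 100% TMT.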

How the data were processed

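RNA was measured by sequencing after a pS6 pull-down, in 23 libraries of 6 groups. Per the labels' protocols, cDNA was amplified and made into libraries with a transposon kit (Nextera). Per the submitters' processing notes, Bowtie, bedtools and the mm10 build were used; versions and gene models were not given in the sources used here. Every deposited table has no header and 20 value columns that never decrease from column to column (0 decreases). The first deposited column holds whole numbers and was read as raw counts of uniquely aligned reads; this reading comes from the values. The last deposited column was read as estimated counts that include reads with several alignments, rounded, and used as an alternative. Unique counts were 51.2 to 71.9% of the estimated counts. The columns between were not used.

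Groups and litters came from the labels. Comparisons used edgeR 4.0.16 in R 4.3.3 (TMM, filterByExpr with a minimum count of 10, the 2-sided quasi-likelihood F test, Benjamini-Hochberg adjustment over all genes tested, threshold 0.05). Dividing the absolute log2 value by the root of F gave its SE, and 95% intervals are 1.96 SE each way. For each acetophenone dose the fit held same-litter controls only; 1 fit of 12 libraries held both TMT doses, which share controls. The planned test had no litter block (litter was in the model for 100% against 1% acetophenone). The labels give each library's litter, so litters pair libraries, and a fit in which litter is the replicate block stands beside it. As a check, deviations from the group means were compared between libraries of 1 litter: Pearson's r over genes was 0.55 to 0.79 (100% acetophenone and control), 0.71 to 0.88 (1% acetophenone and control), 0.04 to 0.28 (100% TMT and control), 0.01 to 0.32 (1% TMT and control) and -0.05 to 0.37 (both TMT doses). CPM used TMM factors over all 23 libraries, and levels per kb the longest GENCODE transcript. The GC and length correction subtracted from each library a spline fit (5 degrees of freedom) of log CPM on both. Alternatives were DESeq2 1.42.0, its size factors in edgeR, no filter, estimated counts, fewer libraries in the fit and leaving out each library or litter.

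The 10 genes, the gene lists and the tests were chosen with earlier results of these data known. Named beside the 10 were list genes past the threshold in either edgeR fit, the 3 with the smallest p where fewer than 3 passed, Fos, Egr1, and the 5 genes most like Pcdh10. Of 23481 symbols, 98.4% matched the annotation. Counting reads in PCR libraries without molecular identifiers gives limits for counting error only.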

Additional observations from a re-analysis of the deposited data

Results flagged for a closer look

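In 40 sets of 4 or 5 libraries (10 genes in 4 groups), a library far from the rest of its group was looked for, and chance alone marks about 1 in 20 sets. The Pcdh10 level of the acetophenone control of litter 4 was 217.2 CPM (970 counts), against 15.83 to 45.16 CPM in the other 4 controls. The same library had the highest Kirrel2 level of the 23, 791.5 CPM. It enters the 1% acetophenone comparison, the fit of 100% against 1% and the difference between the odors, but not the fit of 100% acetophenone with its same-litter controls. Sema7a had 1.539 CPM (9 counts) in the TMT control of litter 2 and a count of 0 in the other 3 controls. Plxna1 had 0.3847 CPM, which is 1 count, in the 100% TMT library of litter 1 and 0 in the other 3 of its dose. Plxna1 had 0.1476 CPM, again 1 count, in the 1% TMT library of litter 2 and 0 in the other 3 of its dose.

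Cdh13 was higher than the control in every litter at 100% acetophenone and lower in every litter at 100% TMT. The log2 ratios of the group mean CPM, odor over same-litter controls, differed by 1.43. In the edgeR test of that difference the value was 1.41 without blocks (SE 1.22, adjusted p = 1) and 1.80 with litters as blocks (SE 1.26, adjusted p = 0.596), so a difference between the odors was not shown.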

How the results depend on the processing

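In the planned fits without a litter block 0 of the 10 genes passed in any comparison. With litter as a replicate block 1 passed at 100% acetophenone, Pcdh10 (log2 2.11), and it also passed, each time alone, with the block in DESeq2 (2.11), on estimated counts (2.10) and with the GC and length correction (2.03). DESeq2, estimated counts and the 8 compared TMT libraries, each with the block, were added after seeing the data, as were the block fits of the odor differences without 1 litter. Without 1 library or litter the Pcdh10 value was 1.81 to 2.47, with 0 to 1 of the genes called. At 100% TMT 1 passed in DESeq2 and 2 in DESeq2 with the block (Pcdh10 and Epha5), and 1 on estimated counts with the block (Pcdh10, 1.00, adjusted p = 0.0486). DESeq2 called 1 between the acetophenone doses (Pcdh10), and with the block 1 between the TMT doses and 1 in the difference between the odors at 100% (Epha5 in both), where leaving out 1 litter with the block gave 0 to 1 in edgeR. Of the 5 genes most like Pcdh10, 2 to 5 stayed without 1 litter. No value changed sign past a threshold. Between the planned edgeR fits on unique counts and the same fits with the block, no other call of the 10 genes changed. On estimated counts the block also changed the edgeR call of Pcdh10 at 100% TMT (adjusted p = 0.184 without it).

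Counts over all genes moved most, from 0 without the block in edgeR to 11 at 100% acetophenone, 1 at 1% acetophenone, 314 at 100% TMT and 1 at 1% TMT with it. DESeq2 called 5, 1, 483 and 4 genes in these comparisons without the block and 39, 49, 1373 and 70 with it. Estimated counts with the block gave 12 at 100% acetophenone and 465 at 100% TMT, and the GC and length correction with the block 8 and 227. With only the 8 libraries compared and the block, 29 genes passed at 100% TMT. Low counts limit Cdh13 (12 to 16 in every 100% TMT library), Kirrel3 and Epha5 in single litters, Nrp2 in most, and Sema7a, Efna5 and Plxna1 throughout.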
